A study of Mus musculus with 9 samples.

Results

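The genes described here are the Id genes (Id1, Id2 and Id3) and the feedback genes of the transforming growth factor beta (TGF-beta) pathway: the inhibitory SMADs Smad6 and Smad7, the SMAD corepressors Ski, Skil and Tgif1, the ligand gene Tgfb1 and the receptor gene Tgfbr1. They were chosen by symbol and by function, with earlier results of these data known, and each of the 10 was found once among the 55450 genes counted. RNA-seq was made from IMM cells, an immortalized mouse macrophage line of wild-type genotype, given lipopolysaccharide (LPS, a bacterial cell wall component that activates Toll-like receptor 4) at 100 ng/mL. The 3 groups were 0 min (the controls, with no LPS exposure), 30 min and 60 min, with 3 libraries each. The 9 libraries used here include none kept without LPS for 30 or 60 min, so that LPS, handling and time cannot be told apart. All come from 1 line, and how it was immortalized is not given in the sources used here. The series' design text calls the libraries biological replicates but does not say that they are separate cultures, so the p-values measure the spread between these libraries, which may be partly technical.

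TGF-beta and bone morphogenetic protein (BMP) ligands bind paired type I and type II receptor kinases, which phosphorylate receptor SMADs that enter the nucleus with SMAD4. The inhibitory SMADs, made in response to the same signals, block the receptors or SMAD complex formation, and SKI, SKIL and TGIF1 bring histone deacetylases to SMADs on DNA. Id proteins are classic products of BMP signalling: they have a helix-loop-helix domain but no DNA-binding region, and hold E proteins and related transcription factors in dimers that cannot bind DNA. In macrophages, TGF-beta is known to restrain inflammatory gene expression and to shape tissue identity.

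The 9 libraries held 26867400 to 30402306 counts each, and normalisation factors of the trimmed mean of M values (TMM) ran from 0.9705 to 1.034. Each level below is in CPM, a gene's counts relative to the TMM-scaled total of its library, except that marker levels and marker sums use plain library totals. A level of 3 counts, the limit that a count of 0 allows, was 0.0987 to 0.112 CPM by plain totals (counting error only). Macrophage markers were present in every group, with a summed level of 1790 to 1860 CPM at 0 min, 1850 to 1880 CPM at 30 min and 1820 to 1900 CPM at 60 min over 7 of 7 markers. At 0 min the macrophage markers Csf1r, Cd68 and Adgre1 were at 578 ± 1.72, 441 ± 17.5 and 131 ± 3.99 CPM (SD, n = 3). Of the 7 fibroblast markers 4 were at 0 in every library, and their sum was 0.0744 to 0.168 CPM at 0 min, 0.109 to 0.21 CPM at 30 min and 0.241 to 0.362 CPM at 60 min. Endothelial marker sums were 1.23 to 2.2 CPM over all libraries, mast cell markers were at 0, and epithelial marker sums did not pass 0.07 CPM. Dendritic cell marker sums were 8.32 to 8.86 CPM at 0 min, 8.09 to 9.1 CPM at 30 min and 6.16 to 7.07 CPM at 60 min. The part of such small sums in the results was not tested. The stimulus was visible in both reference genes named for it: the cytokine gene Tnf was at 47.5 ± 4.27, 341 ± 91.4 and 560 ± 37.5 CPM and the NF-kB inhibitor gene Nfkbia at 19.0 ± 0.847, 168 ± 35.9 and 390 ± 7.16 CPM at 0, 30 and 60 min (SD, n = 3).

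Of the 10 genes, 5 were higher at 30 min than at 0 min (Id1, Id2, Id3, Skil and Tgif1), 8 were higher at 60 min (these, Smad6, Smad7 and Tgfbr1) and none was lower in either comparison. These calls are from edgeR's quasi-likelihood test with Benjamini-Hochberg adjusted p under 0.05, over 14246 tested genes that passed a filter on low counts. All 10 passed that filter. Of all tested genes 4.84% were called higher and 3.35% lower at 30 min, and 13.3% were called higher and 11.7% lower at 60 min. At least 2-fold higher were 4 of the 10 at 30 min, where 1.41% of all tested genes were, and 7 of the 10 at 60 min, where 3.03% were. The median log2 change of the 10 was 0.65 at 30 min and 1.33 at 60 min, and that of all tested genes 0.01 and 0.00. Both comparisons use the same 0 min libraries and are not independent. In bulk RNA, a change in the number of cells that express a gene and a change in RNA per cell cannot be told apart.

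**Figure D1:**
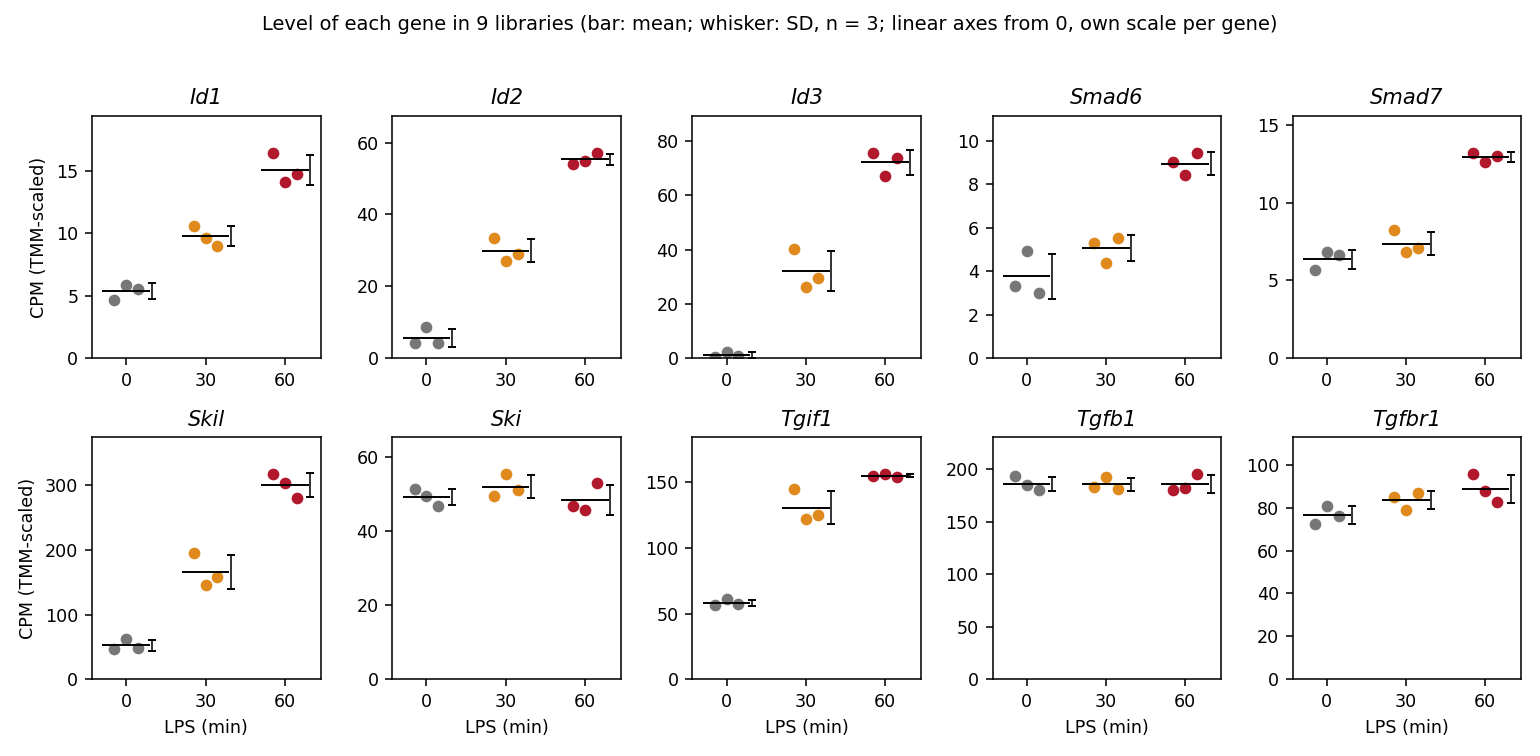
Level of each gene in every library in CPM with TMM scaling (vertical axis, linear from 0, own scale per gene) against minutes of LPS (horizontal axis); points are libraries, bars are means and whiskers the SD (n = 3). Id3 goes from a mean of 1.19 CPM at 0 min to 72.1 CPM at 60 min, while Ski and Tgfb1 keep overlapping values at the 3 times.

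The regulatory sequence before the start of some of these genes is shown for reference, since genes that were higher at 60 min (Id2, Smad6 and Tgif1) and 1 that did not pass the test (Ski) can then be compared. Sequences come from RefSeq (GRCm38.p6), in windows of 250 bases before to 50 bases after a transcript start. Of the 10 genes 7 matched in that table, and only bases outside every annotated exon are printed, 5′ to 3′ on the gene's strand. Capitals mark a match, on either strand, to 1 of 6 motifs searched: TGACG (the core of the cAMP response element), TGANTCA (the AP-1 site), CAGAC (the SMAD box), GGCGCC (a GC element bound by BMP SMADs), the NF-kB consensus and the CArG box. Positions count from the transcript start, with -1 the base before it. The Id2 stretch is chr12:25096254-25096342, minus strand, which lies inside the annotated span of Id2, before an internal start. The Smad6 stretch is chr9:64022060-64022309, minus strand. For Tgif1, which has 5 windows, 2 stretches with long runs outside exons are shown, each before an internal start, chr17:70849815-70850040 and chr17:70851735-70851984, minus strand. The Ski stretch is chr4:155222593-155222785, minus strand.
Id2: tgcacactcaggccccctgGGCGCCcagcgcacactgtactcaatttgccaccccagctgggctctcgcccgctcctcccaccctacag
Smad6: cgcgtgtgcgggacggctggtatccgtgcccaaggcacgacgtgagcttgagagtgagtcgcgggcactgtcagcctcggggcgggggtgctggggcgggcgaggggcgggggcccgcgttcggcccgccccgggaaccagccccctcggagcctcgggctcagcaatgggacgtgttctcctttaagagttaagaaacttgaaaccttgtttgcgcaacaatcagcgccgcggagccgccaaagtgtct
Tgif1, chr17:70849815-70850040: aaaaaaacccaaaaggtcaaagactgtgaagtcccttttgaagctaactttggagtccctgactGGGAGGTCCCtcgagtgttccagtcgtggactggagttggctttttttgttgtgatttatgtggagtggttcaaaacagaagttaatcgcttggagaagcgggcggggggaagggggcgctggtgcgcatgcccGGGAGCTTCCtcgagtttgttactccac
Tgif1, chr17:70851735-70851984: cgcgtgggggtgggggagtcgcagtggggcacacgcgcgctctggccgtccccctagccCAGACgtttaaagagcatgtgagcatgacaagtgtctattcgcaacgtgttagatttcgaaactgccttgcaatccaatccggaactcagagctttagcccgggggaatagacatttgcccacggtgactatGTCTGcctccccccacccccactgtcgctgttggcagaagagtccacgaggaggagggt
Ski: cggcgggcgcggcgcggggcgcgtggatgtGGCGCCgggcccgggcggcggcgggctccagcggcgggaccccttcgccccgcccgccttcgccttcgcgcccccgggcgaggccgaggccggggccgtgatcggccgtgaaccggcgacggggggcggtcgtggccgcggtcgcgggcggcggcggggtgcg
In these stretches GGCGCC stood at -231 in Id2 and at -220 in Ski, the NF-kB consensus stood at -186 and -52 in the one Tgif1 stretch and CAGAC at -191 and -59 in the other, and Smad6 held none of the 6 motifs. Over the full windows, a match to the NF-kB consensus was also found in Tgfb1, GGCGCC in 1 of 2 windows of Tgfbr1 and CAGAC in the other, and TGACG and CAGAC in Id3. CAGAC was in 3 of the 5 windows of Tgif1 and the NF-kB consensus in 1 of them, so that Tgif1 had more windows in which to match than the other genes. The Id3 window lies within an annotated exon and is not printed. Among 32851 windows of the same length in the table, 11.9% held GGCGCC, 8.46% the NF-kB consensus, 49.6% CAGAC, 20.8% TGACG, 7.81% TGANTCA and 1.63% the CArG box. Over the full windows, matches thus stood in genes called higher at 60 min (Id2, Id3, Tgif1 and Tgfbr1) and in genes that did not pass the test (Ski and Tgfb1). Smad6, also called higher at 60 min, held none. A match is a description of the letters only.

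The Id genes rose at both times. Id3, a small gene on chromosome 4 (136143497 to 136145755, plus strand, GRCm38), was at 0.55, 2.39 and 0.617 CPM in the 0 min libraries, at 40.3, 26.2 and 29.6 CPM at 30 min and at 75.6, 67.1 and 73.7 CPM at 60 min. The groups did not overlap, and every stimulated library lay far above every control. In counts these levels were 15, 68 and 19 at 0 min, 1153, 756 and 821 at 30 min and 2155, 1979 and 2172 at 60 min. Id3 was 27.1-fold higher at 30 min (log2 4.76, SE 0.28, edgeR adjusted p = 3.12e-08) and 60.9-fold higher at 60 min (log2 5.93, SE 0.26, adjusted p = 5.43e-10). Its log2 change was the 18th highest of the 14246 tested genes at 30 min and the 17th highest at 60 min. The size depends on 0 min replicate 2: without that library the log2 change of Id3 was 5.77 at 30 min and 6.93 at 60 min.

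Id2, which in immune cells is known for its part in dendritic and innate lymphoid cell development, lies on chromosome 12 (25093799 to 25097140, minus strand). Its level was 4.14, 8.54 and 4.22 CPM at 0 min, 33.5, 27.1 and 29.1 CPM at 30 min and 54.0, 54.8 and 57.1 CPM at 60 min. Here too the groups were apart, and the 60 min libraries were close to one another. Id2 was 5.32-fold higher at 30 min (log2 2.41, SE 0.18, edgeR adjusted p = 3.85e-07) and 9.83-fold higher at 60 min (log2 3.30, SE 0.17, adjusted p = 2.82e-09). Id1, the family member most used as a readout of BMP signalling, lies on chromosome 2 (152736251 to 152737410, plus strand). Its level was 4.62, 5.87 and 5.55 CPM at 0 min, 10.6, 9.64 and 8.99 CPM at 30 min and 16.4, 14.1 and 14.7 CPM at 60 min. The 3 groups of Id1 did not overlap, but its steps were smaller than those of Id2 and Id3. Id1 was 1.82-fold higher at 30 min (log2 0.87, SE 0.11, adjusted p = 7.09e-05) and 2.81-fold higher at 60 min (log2 1.49, SE 0.10, adjusted p = 5.37e-08). The fourth family gene, Id4, had 0 counts in all 9 libraries.

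The balance within the Id family changed. As the log2 ratio of counts within a library, which needs no scaling between libraries, Id1 over Id2 was 0.16, -0.54 and 0.39 at 0 min, -1.66, -1.49 and -1.69 at 30 min and -1.72, -1.95 and -1.96 at 60 min. Id1 thus had about as many counts as Id2 in the controls and fewer in every stimulated library. Id3 over Id2 was -2.87, -1.83 and -2.74 at 0 min, 0.27, -0.05 and 0.02 at 30 min and 0.48, 0.29 and 0.37 at 60 min. From 0 to 60 min the mean log2 ratio of Id1 over Id2 fell by 1.88 and that of Id3 over Id2 rose by 2.86. An exact permutation test of the spread of the 3 group means over all 1680 arrangements gave p = 0.00357 for each, the smallest p this design allows, and 0.00476 after adjustment over the 4 ratios tested.

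**Figure D2:**
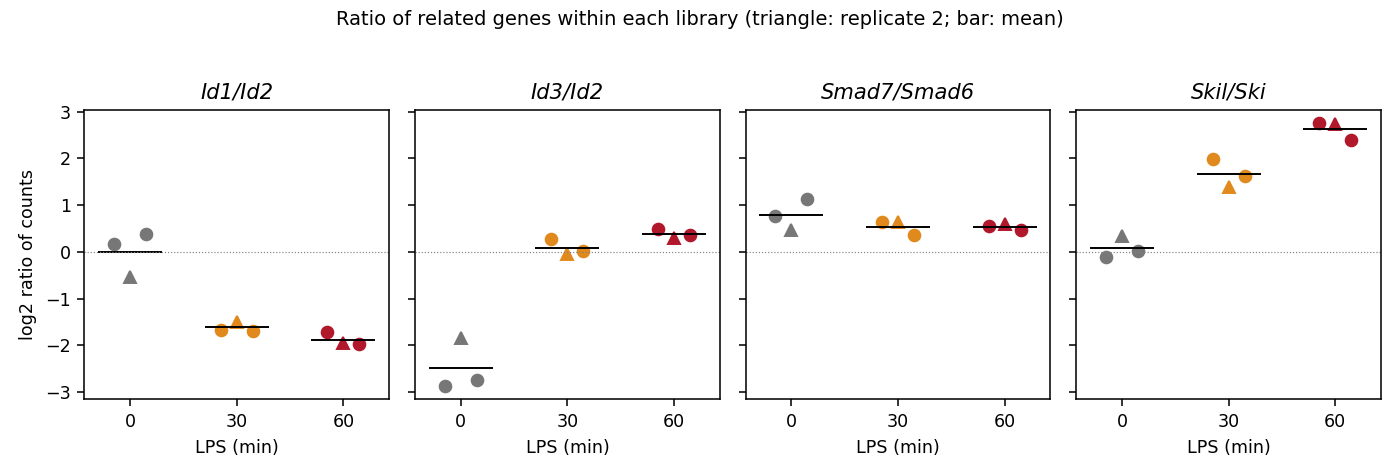
Log2 ratio of counts of related genes within each library (vertical axis) against minutes of LPS (horizontal axis), with bars for group means and triangles for replicate 2. Id1/Id2 falls from a mean of 0.00 to -1.88, Id3/Id2 rises from -2.48 to 0.38, Skil/Ski rises from 0.08 to 2.63, and Smad7/Smad6 overlaps between the times.

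Among the Id genes' binding partners, the E protein genes Tcf3, Tcf4 and Tcf12 did not pass the test at 60 min, with log2 changes of -0.08 (SE 0.05, edgeR adjusted p = 0.308), -0.06 (SE 0.04, adjusted p = 0.287) and -0.09 (SE 0.03, adjusted p = 0.0637). With scaling by library totals alone, which puts the median log2 change of all tested genes at 60 min at -0.07 in place of 0.00, Tcf4 (-0.13) and Tcf12 (-0.16) were called lower, as was Tcf12 (-0.09) where at least 50 counts in 3 libraries were asked for. Per kilobase of exon, counting all annotated exon bases of a gene, the E protein levels summed to 25.9 to 28.1 CPM per kb over all 9 libraries. Such a length can exceed that of a single transcript, and Tcf4, at 101 CPM at 0 min, came to 3.68 CPM per kb. The 3 Id genes summed to 5.99, 9.9 and 6.86 CPM per kb at 0 min, 45.4, 34.1 and 36.3 at 30 min and 78.5, 72.2 and 77.2 at 60 min. The summed Id level was therefore 0.213, 0.369 and 0.247 times the summed E protein level at 0 min, 1.72, 1.23 and 1.32 times at 30 min and 3.02, 2.79 and 2.93 times at 60 min. Id3 made up 5.02 to 13.5% of the Id sum at 0 min, 43.0 to 49.6% at 30 min and 51.9 to 53.8% at 60 min, and Id1 held 51.1 to 69.8% of it at 0 min. This ratio of RNA levels was chosen after its values were seen, carries no test and says nothing of protein amounts. Its size depends on the gene lengths used, and it was not computed with the longest transcript of each gene. An Id sum above the E protein sum is therefore shown for these lengths only. The haematopoietic factors Tal1 and Lyl1, which act as dimers with E proteins, fell at 60 min, Tal1 by 0.51 on the log2 scale (SE 0.05, adjusted p = 4.53e-06) and Lyl1 by 0.67 (SE 0.05, adjusted p = 8.52e-08). At 30 min their log2 changes were -0.15 (edgeR adjusted p = 0.102) for Tal1 and -0.13 (adjusted p = 0.108) for Lyl1. Tal1 passed at 30 min without 30 min replicate 3 (-0.20), and Lyl1 without 0 min replicate 2 (-0.17) and with genes of low counts kept in (-0.14).

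**Figure D3:**
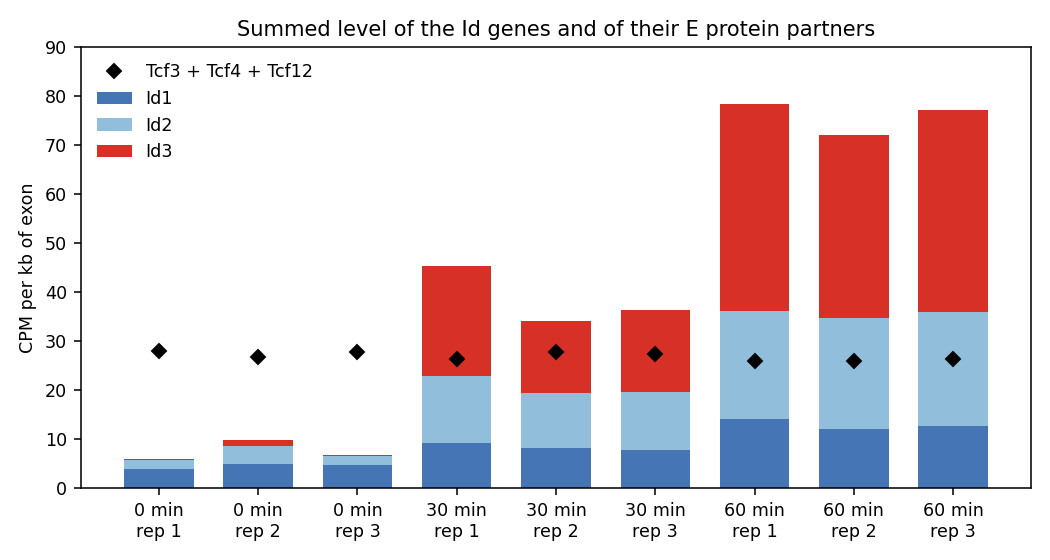
Summed level of Id1, Id2 and Id3 (stacked bars) and of the E protein genes Tcf3, Tcf4 and Tcf12 (diamonds) in each of the 9 libraries, in CPM per kb of exon on a linear axis from 0. The Id bars lie below the diamonds in the 3 controls and above them in the 6 stimulated libraries, an order that was not checked with other gene lengths.

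The inhibitory SMADs were called higher at 60 min only, and whether each lagged behind the Id genes was not tested. Smad6, which mainly blocks BMP receptors, lies on chromosome 9 (63953076 to 64022059, minus strand). Its level was 3.34, 4.92 and 3.02 CPM at 0 min, 5.31, 4.37 and 5.53 CPM at 30 min and 9.01, 8.41 and 9.44 CPM at 60 min. The 0 and 30 min libraries of Smad6 overlapped, since 0 min replicate 2 lay above 30 min replicate 2, and the 60 min libraries lay above all others. Smad6 was 2.38-fold higher at 60 min (log2 1.25, SE 0.15, edgeR adjusted p = 2.53e-05), and its log2 change at 30 min was 0.43 (SE 0.16, adjusted p = 0.127). That 30 min value passed the test without 0 min replicate 2 (0.67, adjusted p = 0.00845) and with genes of low counts kept in (0.43, adjusted p = 0.0182), and in the other 15 of 17 alternatives it did not, with adjusted p up to 0.325.

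Smad7, which blocks both TGF-beta and BMP type I receptors and recruits ubiquitin ligases to them, lies on chromosome 18 (75367529 to 75395935, plus strand). Its level was 5.65, 6.82 and 6.62 CPM at 0 min, 8.25, 6.8 and 7.08 CPM at 30 min and 13.2, 12.6 and 13.0 CPM at 60 min. Here the 30 min libraries again overlapped the controls and the 60 min libraries did not. Smad7 was 2.03-fold higher at 60 min (log2 1.02, SE 0.09, edgeR adjusted p = 1.51e-06), against a log2 change of 0.21 at 30 min (SE 0.10, adjusted p = 0.237). The ratio of Smad7 to Smad6 counts had group means of 0.78, 0.54 and 0.53 on the log2 scale at 0, 30 and 60 min, which did not differ beyond the spread between libraries (exact permutation p = 0.346, also 0.346 after adjustment over the 4 ratios). Without 0 min replicate 2 the difference from 0 to 60 min was -0.41 in place of -0.25 and the ratio passed the exact test (adjusted p = 0.0357).

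Among the corepressors, Skil and Tgif1 rose while Ski did not pass the test. Skil, which codes for SnoN, a SMAD corepressor that is itself a known TGF-beta target gene, lies on chromosome 3 (31095058 to 31122577, plus strand). Its level was 47.5, 62.2 and 47.7 CPM at 0 min, 196, 145 and 158 CPM at 30 min and 317, 304 and 280 CPM at 60 min. Each step of Skil separated the libraries with no overlap. Skil was 3.17-fold higher at 30 min (log2 1.67, SE 0.11, edgeR adjusted p = 1.27e-07) and 5.72-fold higher at 60 min (log2 2.52, SE 0.11, adjusted p = 5.43e-10). In absolute terms it gained 114 CPM by 30 min and a further 134 CPM by 60 min. Ski, its paralog on chromosome 4 (155154075 to 155222592, minus strand), was at 51.3, 49.4 and 46.9 CPM at 0 min, 49.4, 55.4 and 51.2 CPM at 30 min and 46.7, 45.6 and 53.1 CPM at 60 min. The Ski libraries overlapped at all times, and its log2 change was 0.08 at 30 min (95% interval -0.05 to 0.21, edgeR adjusted p = 0.478) and -0.02 at 60 min (95% interval -0.15 to 0.11, adjusted p = 0.859). The log2 ratio of Skil to Ski counts was -0.11, 0.33 and 0.03 at 0 min, 1.99, 1.39 and 1.63 at 30 min and 2.76, 2.73 and 2.40 at 60 min. The paralogs thus had near equal counts in the controls and 5.26 to 6.78 Skil counts per Ski count at 60 min (exact permutation p = 0.00357, adjusted p = 0.00476).

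Tgif1, a homeodomain protein that binds SMAD2 and SMAD3 and recruits deacetylases, lies on chromosome 17 (70844205 to 70853546, minus strand). Its level was 56.7, 60.9 and 57.2 CPM at 0 min, 145, 122 and 125 CPM at 30 min and 155, 156 and 154 CPM at 60 min. Most of the rise of Tgif1 was present at 30 min, and 1 of the 30 min libraries came close to the 60 min level. Tgif1 was 2.24-fold higher at 30 min (log2 1.16, SE 0.06, edgeR adjusted p = 4.33e-09) and 2.67-fold higher at 60 min (log2 1.41, SE 0.06, adjusted p = 2.35e-10). Its pseudogene Tgif1-ps had 0 counts in all libraries.

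The ligand gene Tgfb1, on chromosome 7 (25687002 to 25705077, plus strand), was at 193, 185 and 180 CPM at 0 min, 183, 192 and 181 CPM at 30 min and 180, 182 and 195 CPM at 60 min. Its libraries overlapped at every time. The log2 change of Tgfb1 was -0.00 at both times (95% interval -0.09 to 0.09 at 30 min and -0.09 to 0.08 at 60 min, edgeR adjusted p = 0.992 and 0.98). Tgfbr1, which codes for the type I receptor kinase of TGF-beta, lies on chromosome 4 (47353222 to 47414931, plus strand). Its level was 72.4, 80.7 and 76.2 CPM at 0 min, 85.0, 79.1 and 86.9 CPM at 30 min and 95.6, 87.6 and 82.6 CPM at 60 min. Its 60 min libraries all lay above the controls, the lowest by a small margin. Tgfbr1 was 1.16-fold higher at 60 min (log2 0.21, SE 0.06, edgeR adjusted p = 0.0122), and its log2 change at 30 min was 0.13 (adjusted p = 0.194). This call was lost with scaling by library totals alone (0.14, adjusted p = 0.0722), without 0 min replicate 1 (0.18, adjusted p = 0.0619) and without 60 min replicate 1 (0.15, adjusted p = 0.0779), and held in the other 14 of 17 alternatives (adjusted p from 3.77e-05).

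**Figure D4:**
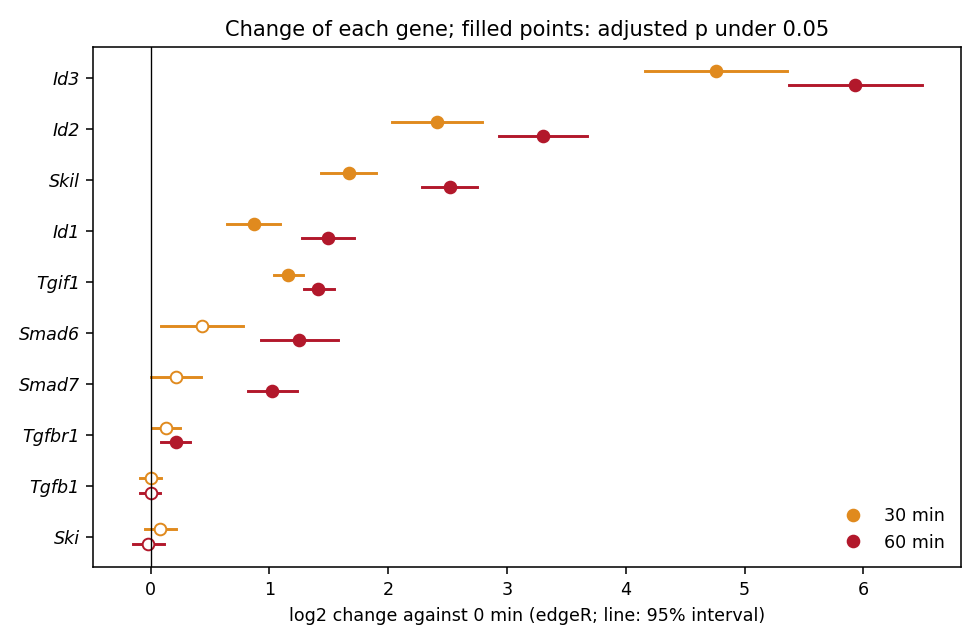
Log2 change of each gene at 30 min (orange) and 60 min (red) against 0 min from edgeR (horizontal axis), with lines for the 95% interval and filled points for an adjusted p under 0.05. Id3 stands farthest right at 4.76 and 5.93, Smad6 and Smad7 are filled at 60 min only, and the intervals of Ski and Tgfb1 include 0.

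Between 30 and 60 min, 7 of the 10 genes rose further (Id1, Id2, Id3, Smad6, Smad7, Skil and Tgif1) and none fell, where 8.87% of all tested genes were called higher and 7.65% lower. Only Id3 did so by at least 2-fold (2.25-fold), as 1.64% of all tested genes did. The share of the 60 min gain in mean CPM that was present at 30 min differed among the genes that were called at 60 min. It was 74.3% for Tgif1, 59.6% for Tgfbr1, 48.9% for Id2, 46.0% for Skil, 45.3% for Id1 and 43.5% for Id3, and it was 25.2% for Smad6 and 15.4% for Smad7. Without 30 min replicate 1 the share of Smad7 was 8.76%. With each library left out in turn, the share of Tgfbr1 ran from 46.2% to 83.5% and that of Smad6 from 19.5% to 32.8%. The 30 min changes of Tgfbr1, Smad6 and Smad7 did not pass the test, so that their places in this order are uncertain. These shares are descriptions with no test of their differences.

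Set side by side per kilobase of exon, the order of the levels changed. At 0 min Tgfb1 led with 36.8 ± 1.29 CPM per kb (SD, n = 3), followed by Tgfbr1 (11.7 ± 0.641), Tgif1 (10.4 ± 0.414), Ski (8.84 ± 0.398), Skil (5.41 ± 0.866), Id1 (4.61 ± 0.559), Id2 (2.31 ± 1.03), Smad7 (1.41 ± 0.139), Smad6 (1.17 ± 0.318) and Id3 (0.662 ± 0.583). The neighbours Skil and Id1, Id2 and Smad7, Smad7 and Smad6, and Smad6 and Id3 lay within the sum of their SDs. At 30 min the order was Tgfb1 (36.8 ± 1.12 CPM per kb), Tgif1 (23.2 ± 2.23), Id3 (17.9 ± 4.1), Skil (17.2 ± 2.73), Tgfbr1 (12.8 ± 0.622), Id2 (12.3 ± 1.34), Ski (9.35 ± 0.554), Id1 (8.41 ± 0.708), Smad7 (1.63 ± 0.17) and Smad6 (1.58 ± 0.192). Id3 had moved from the tenth place to the third. Within the sum of their SDs lay Tgif1 and Id3, Id3 and Skil, Tgfbr1 and Id2, Ski and Id1, and Smad7 and Smad6. At 60 min the order was Id3 (40.3 ± 2.48 CPM per kb), Tgfb1 (36.8 ± 1.59), Skil (30.9 ± 1.94), Tgif1 (27.6 ± 0.19), Id2 (22.7 ± 0.64), Tgfbr1 (13.6 ± 1.0), Id1 (13.0 ± 1.0), Ski (8.72 ± 0.726), Smad7 (2.86 ± 0.0634) and Smad6 (2.79 ± 0.161). Id3 and Tgfb1 lay within the sum of their SDs there, as did Tgfbr1 and Id1, and Smad7 and Smad6. With the length of the longest annotated transcript in place of all exon bases, Tgfb1 led at 60 min with 72.1 CPM per kb and Id3 followed with 56.4. Other neighbours also changed places with that length: Tgif1 (18.5) stood above Tgfbr1 (13.3) at 0 min, Id2 (15.2) above Tgfbr1 (14.5) at 30 min, and Tgif1 (49.4) above Skil (44.7) at 60 min.

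The wider pathway was read from 9 lists by role, 90 genes in all, of which 58 were tested and 17 had 0 counts in every library. At 30 min 13 of the 58 were higher and 1 lower, where 4.84% and 3.35% of all tested genes were. At 60 min 14 were higher and 6 lower, where 13.3% and 11.7% of all tested genes were. The median log2 change of the 58 was 0.04 at both times, against 0.01 and 0.00 over all tested genes. Scaled by library totals alone, the split at 60 min was 12 higher and 13 lower, as that of all tested genes was 1313 and 3048 in place of 1891 and 1671. At 30 min the split of all tested genes was 551 higher and 649 lower under that scaling, in place of 689 and 477, and that of the lists was the same. Between 30 and 60 min 13 of the 58 were higher and 7 lower, where 8.87% and 7.65% of all tested genes were. Under scaling by library totals alone 9 were higher and 14 lower, and all tested genes split 1005 and 1672 in place of 1263 and 1090. Without 30 min replicate 2, 8 were higher and 5 lower between 30 and 60 min.

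Of 12 ligand genes beside Tgfb1, only Gdf15 and Gdf11 passed the filter. Gdf15, a distant family member known as a stress-induced cytokine, had 67, 61 and 89 counts at 0 min, 423, 359 and 312 at 30 min and 476, 591 and 520 at 60 min. Its groups did not overlap, and it was 5.12-fold higher at 30 min (log2 2.36, SE 0.13, edgeR adjusted p = 1.98e-08) and 7.23-fold higher at 60 min (log2 2.85, SE 0.13, adjusted p = 7.52e-10). The BMP genes Bmp4, Bmp6 and Bmp7 and the inhibin and activin subunit genes Inha, Inhba and Inhbb were at 0 in every library. Of the 6 tested genes of latency and activation, 4 were higher at 30 min and 3 at 60 min, with none lower. Among all tested genes 4.84% were higher at 30 min and 13.3% at 60 min. Thbs1, whose product thrombospondin 1 can release TGF-beta from its latent complex, had 8, 9 and 8 counts at 0 min, 259, 171 and 182 at 30 min and 438, 351 and 431 at 60 min. From this low base Thbs1 rose 24.5-fold at 30 min (log2 4.62, SE 0.24, edgeR adjusted p = 8.94e-09) and 47.6-fold at 60 min (log2 5.57, SE 0.23, adjusted p = 2.46e-10). Furin, the protease that cleaves the TGF-beta precursor, rose 1.23-fold at 30 min and 1.68-fold at 60 min (log2 0.75, SE 0.03, adjusted p = 5.66e-10). Mmp14, a membrane metalloprotease, had 2 to 7 counts at 0 min and 14 to 18 at 60 min, and was 3.72-fold higher at 30 min (edgeR adjusted p = 0.0148) and 3.85-fold higher at 60 min (adjusted p = 0.0041). Its 30 min call was lost on leaving out replicate 2 or replicate 3 of the 0 min group or replicate 2 of the 30 min group, and without 0 min replicate 1 its log2 change was 2.59 in place of 1.89 at 30 min and 2.64 in place of 1.95 at 60 min. Neither of the 2 tested antagonist genes, Twsg1 and Bambi, passed the test, and Nog, Chrd, Lefty1 and Dcn were at 0.

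Receptor and SMAD genes moved little. Tgfbr2, the type II receptor of TGF-beta, had log2 changes of 0.05 at 30 min (edgeR adjusted p = 0.683) and 0.06 at 60 min (adjusted p = 0.525). None of the 9 tested receptor genes passed at 30 min. At 60 min the activin receptor gene Acvr2b fell by 0.41 on the log2 scale (SE 0.07, adjusted p = 0.000933) and Acvr1b by 0.18 (SE 0.06, adjusted p = 0.0459), while Acvr2a rose by 0.26 (SE 0.07, adjusted p = 0.0134). The call of Acvr1b was lost in 11 of 17 alternatives (adjusted p up to 0.128), among them DESeq2, the replicate block and each fit with 1 library left out other than 0 min replicate 3 or 60 min replicate 3. That of Acvr2a was lost in 5 of 17 (adjusted p up to 0.0588), with scaling by library totals alone (0.19) and on leaving out replicate 1 (0.24) or 3 (0.23) of the 0 min group or replicate 1 (0.23) or 2 (0.23) of the 60 min group. Smad1, Smad2, Smad3 and Smad4 had log2 changes at 60 min of -0.02, 0.02, 0.09 and 0.11 and did not pass (edgeR adjusted p = 0.944, 0.832, 0.316 and 0.0572). Smad5, a BMP SMAD, was higher at 60 min by 0.16 (SE 0.05, adjusted p = 0.0216), a call lost with scaling by library totals alone (0.09) and on leaving out replicate 1 (0.16) or 3 (0.13) of the 0 min group or replicate 1 (0.15) or 2 (0.14) of the 60 min group. Smad9 was at 0. Of the 10 tested regulators in the cytoplasm, Smurf2, a ubiquitin ligase that works with SMAD7, rose at 30 min (log2 0.20, SE 0.04, edgeR adjusted p = 0.00692), and Ppm1a, a SMAD phosphatase, rose at 60 min (0.21, SE 0.04, adjusted p = 0.00249). Smurf2 did not pass at 60 min against 0 min (0.06, edgeR adjusted p = 0.368). It fell between 30 and 60 min (-0.15, edgeR adjusted p = 0.0263), a call lost in 6 of 17 alternatives. Of the 9 tested nuclear cofactors, Zeb2, a SMAD-binding repressor, was higher at 30 min (log2 0.23, edgeR adjusted p = 0.0129) and at 60 min (0.71, SE 0.05, adjusted p = 1.3e-07), and Ep300, a coactivator, fell at 60 min by 0.16 (adjusted p = 0.00419). The 30 min call of Zeb2 was lost on leaving out replicate 1 (0.22) or 3 (0.20) of the 0 min group or replicate 1 (0.17) of the 30 min group.

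Of the 9 tested genes listed as TGF-beta targets, 6 were higher and 1 was lower at both times. Upward calls took in 4.84% of all tested genes by 30 min and 13.3% by 60 min. Downward calls took in 3.35% and 11.7% of them. Junb, an AP-1 subunit, rose 4.23-fold and 7.0-fold, and the cell cycle inhibitor gene Cdkn1a rose 4.86-fold and 6.41-fold (log2 2.81, SE 0.06, and 2.68, SE 0.08, at 60 min, edgeR adjusted p = 1.33e-12 and 2e-11). Atf3, a stress-induced repressor, rose 2.07-fold at 30 min and 2.31-fold at 60 min (log2 1.21, SE 0.06, adjusted p = 7.52e-10). The TGF-beta induced gene Tgfbi had log2 changes of 0.04 at both times (edgeR adjusted p = 0.569 and 0.461), Tsc22d1 fell by 0.21 at both (adjusted p = 0.00489 and 0.00159), and Ctgf was at 0. Several of these targets are also known immediate-early genes of other stimuli, and the list does not separate the pathways.

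**Figure D5:**
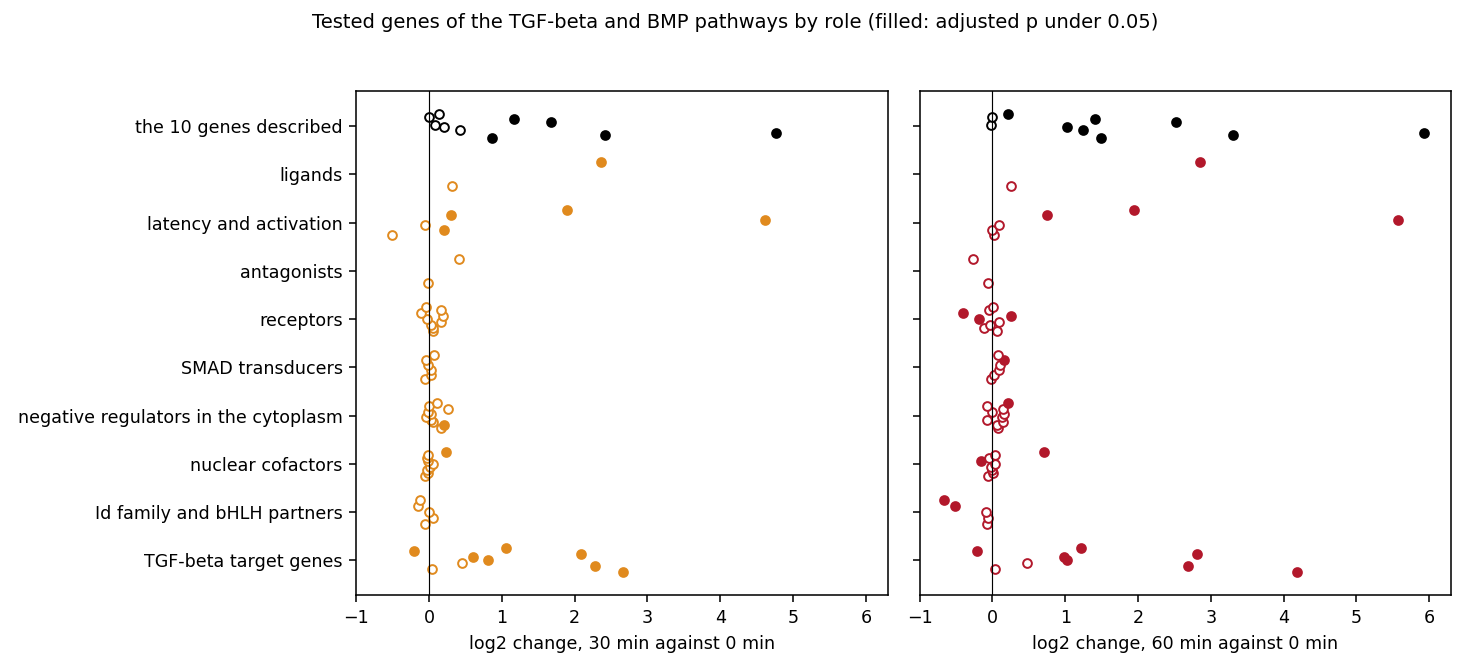
Log2 change at 30 min (left) and 60 min (right) against 0 min of the 10 genes described and of the 58 tested genes of the pathway lists, by role, with filled points for an adjusted p under 0.05. Receptors, SMAD transducers and nuclear cofactors lie between -0.41 (Acvr2b at 60 min) and 0.71 (Zeb2 at 60 min), and points beyond 2 include Id2, Id3, Skil (60 min only), Gdf15, Thbs1, Junb and Cdkn1a.

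The genes nearest to each in the size of both changes were taken from 10561 protein-coding genes with a mean of at least 1 CPM, as the distance over the log2 changes at 30 and 60 min, which rests on 2 values per gene. Nearest to Id3 were Thbs1 (distance 0.38), Tnfaip3 (0.47) and Cd69 (0.56), all farther from it than the nearest 3 of each other gene were. Nearest to Id2 were Mmp12 (0.20), Plk2 (0.25) and Csrnp1 (0.26), and to Id1 Dusp4 (0.03), F3 (0.05) and Ccl2 (0.10). Smad6 lay beside Rel (0.03), Orai2 (0.06) and Errfi1 (0.07), and Smad7 beside Rnd3 (0.04), N4bp1 (0.04) and Abca1 (0.06). For Skil the nearest were Tlr2 (0.10), Slc15a3 (0.15) and Il1rn (0.20), and for Tgif1 Mxd1 (0.08), Crem (0.10) and Jund (0.11). The distances say that the sizes were alike in these libraries and nothing of shared control.

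In the gene annotation (GENCODE M21, GRCm38), none of the 10 genes overlaps another annotated gene. The strand setting of the counting is not given in the submitters' notes, and its effect on these genes was not tested. The Id genes span 1.16 kb (Id1), 3.34 kb (Id2) and 2.26 kb (Id3) and Tgif1 spans 9.34 kb. Smad7, Skil and Tgfb1 span 28.4, 27.5 and 18.1 kb, and Smad6, Ski and Tgfbr1 span 69.0, 68.5 and 61.7 kb. The median span of the 11313 tested protein-coding genes was 23.3 kb, and that of the 284 among them that were at least 2-fold higher at 60 min was 15.3 kb. Of the genes called at 30 min, Tgif1 and the Id genes are shorter than both medians and Skil (27.5 kb) is longer than both. Those called at 60 min only, Smad7 (28.4 kb), Tgfbr1 (61.7 kb) and Smad6 (69.0 kb), are longer than both. Of the genes that did not pass the test, Tgfb1 (18.1 kb) lies between the medians and Ski (68.5 kb) above them. The pentamer ATTTA, the core of the AU-rich elements that mark short-lived RNAs, occurs 14 times in the 3′ untranslated region of Skil, 10 times in that of Ski, 5 times in Tgfbr1, 4 times in Smad7, 3 times in Id2, 2 times in Smad6 and 1 time in Tgfb1. It occurs 0 times in Id1, Id3 and Tgif1, as in 28.5% of tested protein-coding genes with such a region and in 19.4% of those at least 2-fold higher at 60 min. Per kb of that region the count was 7.41 in Tgfb1, 4.46 in Smad6, 3.82 in Id2, 3.53 in Skil, 3.06 in Ski, 2.55 in Smad7 and 1.2 in Tgfbr1. The median was 1.36 for tested protein-coding genes and 2.11 for those at least 2-fold higher at 60 min. Of the 6 genes above both medians, Smad6, Id2, Skil and Smad7 were higher at 60 min and Tgfb1 and Ski did not pass the test. The highest values rest on short regions, with 1 match in 135 bases in Tgfb1 and 2 in 448 bases in Smad6. These features are descriptions with no test.

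The authors' deposited table, made with DESeq2, calls the same 5 of the 10 genes at 30 min and the same 8 at 60 min at an adjusted p under 0.05. It rests on the same libraries, so that this match is not independent evidence. The share of all genes called there is not given here. In the authors' deposited table the log2 change of Id3 is 4.75 at 30 min and 5.93 at 60 min, and that of Tgfbr1 at 60 min is 0.21 with an adjusted p of 0.0057.

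The 0 min libraries were not alike in the Id genes, which enters every change against 0 min given above. Replicate 2 had 4.1 times the mean Id3 level of the other two controls, 2.04 times that of Id2, 1.55 times that of Smad6 and 1.31 times that of Skil, while Id1 was at 1.15 times and Tgfb1 at 0.99 times. Ranked among 10561 protein-coding genes by how far replicate 2 lay above the higher of the other two, Id3 was the 2nd, Id2 the 3rd, Smad6 the 12th and Skil the 37th. Above them stood Dmpk, a gene chosen by this rank, at 3.41, 9.91 and 3.24 CPM. Tnf was at 52.2, 46.5 and 43.8 CPM and Nfkbia at 18.0, 19.7 and 19.1 CPM in the 3 controls. All 5 genes called at 30 min and all 8 called at 60 min were still called without that library.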

How the data were processed

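RNA-seq of total RNA from IMM cells was made with a stranded, ribosomal-RNA-depleted library kit, per the labels' protocols. The submitters' processing notes name, among others, RSEM 1.3.1 and STAR 2.7.0f, the trimmer cutadapt 1.18, DESeq2 and the mouse build mm10, with no settings. The authors deposited RSEM expected counts per gene, of which 5.037 to 5.32% of a library's values were not whole, and a table of log2 fold changes with adjusted p-values from DESeq2, whose baseline (0 min) was read from its values. Columns were matched to samples by their labels.

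Expected counts were rounded and tested with edgeR 4.0.16 (R 4.3.3) by quasi-likelihood F tests with TMM scaling, filterByExpr (10 counts, equal to 0.324 to 0.367 CPM) and 1 term for time over all 9 libraries. Of 55450 genes, 31265 were 0 throughout and 14246 were tested, with a common biological coefficient of variation of 5.2%. P-values were adjusted by Benjamini-Hochberg over all tested genes. Standard errors are the log2 change over the square root of F. Ratios of related genes used 0.5 added counts and exact permutation. The test was checked on simulated data. Alternatives used DESeq2 1.42.0, limma 3.58.1 (voom), other scalings and filters, a replicate block and each library left out. The 10 genes, the pathway and marker lists and the tests were chosen with earlier results of these data known. All 10 are named. In each role the text names genes called with a log2 change of at least 0.5 (at most 4), Tgfbr2, Smad1 to Smad5, Tcf3, Tcf4, Tcf12 and Id4, and the 3 nearest genes of each member at least 2-fold changed; others named were chosen after their values were seen. The values of 1 gene that this rule names are not reported here. The marker lists were of macrophages, fibroblasts, endothelial, T, B, dendritic, mast and epithelial cells and neutrophils. Marker sums not given in the results were 2.77 to 3.9 CPM for T cells, 0.197 to 0.558 CPM for B cells and 5.51 to 6.89 CPM for neutrophils over all libraries. Gene positions and lengths are from GENCODE M21, which held all 55450 gene identifiers.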

Additional observations from a re-analysis of the deposited data

Results flagged for a closer look

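For 7 genes the change at 60 min differed from the change at 30 min by a test of the difference itself, the comparison of the 60 min with the 30 min libraries (edgeR, Benjamini-Hochberg adjusted over all tested genes). The difference was a log2 value of 0.63 for Id1 (adjusted p = 0.000352), 0.89 for Id2 (0.00049), 1.17 for Id3 (0.000172), 0.82 for Smad6 (0.00133), 0.81 for Smad7 (2.87e-05), 0.85 for Skil (4.37e-05) and 0.25 for Tgif1 (0.00468). Of all tested genes 8.87% were called higher and 7.65% lower in that comparison. All 3 libraries at 60 min lay above all 3 at 30 min for Id1, Id2, Id3, Smad6, Smad7, Skil and Tgif1. These are the genes that passed the test, so that their separation adds no further evidence. The share of all tested genes that separate in this way is not given here. For Id3 DESeq2 gave the same size with an adjusted p of 0.138, and over its 17 alternatives the adjusted p ran from 3.27e-96 to 0.138.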

How the results depend on the processing

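Over the 30 log2 changes of the 10 genes, 504 of 510 alternative values kept their direction and side of the threshold, 4 lost a call, 2 gained one and 0 reversed. The number of the 10 genes called was 5 to 6 at 30 min, 7 to 8 at 60 min and 6 to 7 between them over all alternatives run. With each library left out in turn, the count of pathway list genes called between 30 and 60 min ran from 13 to 21 (20 in all libraries), with 13 reached without 30 min replicate 2. The change of the log2 ratio of Smad7 to Smad6 from 0 to 60 min ran from -0.41 to -0.08, with -0.41 past the threshold. A fit with the replicate number as a block called 5, 8 and 7 of the 10 genes and 14, 19 and 15 list genes, and lost 1 call at 60 min (Acvr1b) and 5 between 30 and 60 min (Smad4, Atf3, Klf10, Rnf111 and Smurf2). Libraries with the same number did not deviate together (correlations of -0.0637 to 0.00609, against -0.0703 to 0.101 for differing numbers). A pairing with little effect on most genes would give such values too, so that whether the numbers pair the libraries cannot be told. Depth limits Id3 at 0 min (15, 68 and 19 counts) and Mmp14 (2 to 18 counts per library).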
